A study of Mus musculus with 12 samples.

Results

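C1qa, C1qb and C1qc, the 3 genes that encode the A, B and C chains of complement component C1q, were followed in the subventricular zone of ageing mice. They were chosen by their symbols, as 3 of the 23725 genes in the deposited table. The subventricular zone lies along the lateral ventricle of the brain and holds the neural stem cells of the adult. The groups were male wild type mice of 2, 6, 18 and 22 months, with 3 libraries at each age and 12 in all. The strain C57BL/6 was given for the 2-month samples alone, and no treatment, transgene or other allele was named for any age. RNA was isolated with Trizol from dissected tissue that had been dissociated to single cells, so each library is a mixture of cell types. Whether the replicates were different animals was not given in the labels, and the p-values therefore speak only of the variation from library to library, which could be technical.

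C1q is the recognition part of the C1 complex, which starts the classical complement pathway. Each molecule is built from A, B and C chains in equal number, joined as collagen-like stalks with globular heads. The heads bind antibodies, dying cells and other targets, and the attached proteases C1r and C1s then cleave C4 and C2, which leads to cleavage of C3. In brain, C1q is made mainly by microglia, and it can tag synapses and debris for uptake.

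The 3 genes lay side by side on the minus strand of mouse chromosome 4 (RefSeq, GRCm38.p6). C1qb (gene ID 12260) ran from base 136880126 to 136886200, C1qc (gene ID 12262) from 136889801 to 136892936, and C1qa (gene ID 12259) from 136895916 to 136898844. The cluster covered 18719 bases, with gaps of 3600 bases between C1qb and C1qc and 2979 bases between C1qc and C1qa. Each gene had 3 exons in its longest transcript, whose length was 1040 nt for C1qa, 1088 nt for C1qb and 1203 nt for C1qc. Promoters are shown as background, and their part in the C1q values was not tested. RefSeq promoter windows, 250 bases before to 50 bases after the start site, were on hand for C1qb and C1qc, at chr4:136886151-136886450 and chr4:136892865-136893164 on the minus strand. Capitals mark 2 motifs, each searched on both strands: GAGGAA, the core bound by PU.1, and TGCTGA, a half-site bound by MAF proteins. TTCCTC is the PU.1 core as it reads on the opposite strand.
C1qb: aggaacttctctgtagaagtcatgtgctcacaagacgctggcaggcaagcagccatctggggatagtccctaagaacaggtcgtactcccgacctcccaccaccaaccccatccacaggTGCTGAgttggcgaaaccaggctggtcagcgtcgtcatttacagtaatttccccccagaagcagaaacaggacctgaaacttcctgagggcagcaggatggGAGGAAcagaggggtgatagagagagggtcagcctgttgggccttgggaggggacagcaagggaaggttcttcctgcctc
C1qc: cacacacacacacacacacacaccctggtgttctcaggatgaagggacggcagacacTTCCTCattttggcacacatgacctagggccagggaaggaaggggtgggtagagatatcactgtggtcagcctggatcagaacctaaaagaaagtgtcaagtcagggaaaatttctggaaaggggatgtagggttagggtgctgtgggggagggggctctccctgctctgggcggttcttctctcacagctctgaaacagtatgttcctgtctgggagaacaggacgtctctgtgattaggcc
The C1qb window held GAGGAA at 30 to 25 bases before the start site and TGCTGA at 131 to 126 bases before it. The C1qc window held GAGGAA on the other strand, at 193 to 188 bases before the start site, and had no MAF half-site. Of all 27025 genes with such windows, 28.3% held the PU.1 core and 19.1% the MAF half-site, and a match says nothing about binding. The motifs did not overlap each other.

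The recovered reads totalled 6381390 to 15962517 per library, and each C1q gene had 258 to 744 reads in a library. The 22-month libraries put more reads on short transcripts than the other ages. Transcripts under 1500 nt took 5.56% ± 0.169, 5.84% ± 0.320, 5.95% ± 0.298 and 6.93% ± 0.0501 of the reads at 2, 6, 18 and 22 months (SD, n = 3 each). The 7 markers of stem cells and neuroblasts of the subventricular zone summed to 10259, 8441, 9393 and 9803 normalised counts (reads divided by the size factor of the library) in the order of age, and at 22 against 2 months 1 was higher and 5 lower (all tested genes: 18.4% higher, 17.2% lower). Dcx, a neuroblast gene among the 5, averaged 1136, 740, 580 and 545. Markers of other cells of the dissection moved as well. At 22 against 18 months all 4 ependymal and all 4 striatal neuron markers were higher and 3 of 4 oligodendrocyte markers were lower (all tested genes: 8.63% higher, 10.2% lower), and their part in the C1q values at 22 months was not tested. Among 3 choroid plexus markers 0 passed at this step, with 1 under 0.05 unadjusted and 0 by edgeR. In the order of age the sums were 1127, 1175, 1147 and 1564 normalised counts for ependymal cells, 22195, 24604, 23240 and 27604 for striatal neurons, and 74575, 72832, 79524 and 58714 for oligodendrocytes. 1 library, 22 months replicate 1, stood apart in H2-T23, an MHC class I gene, with 963 normalised counts against 432 and 379 in the other 22-month libraries.

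All 3 C1q transcripts rose with age, and their means were higher at each successive age. C1qa had 313, 312 and 305 normalised counts in the 2-month libraries, 450, 376 and 378 in the 6-month ones, 567, 498 and 498 in the 18-month ones, and 808, 658 and 609 in the 22-month ones. The libraries of any later age all lay above those of the age before it, and 22 months replicate 1 stood highest of all. C1qb had 359, 338 and 341 normalised counts in the 2-month libraries, 467, 396 and 403 in the 6-month ones, 600, 515 and 534 in the 18-month ones, and 772, 715 and 689 in the 22-month ones. Its libraries, too, were in order of age without overlap at any step. C1qc had 341, 302 and 278 normalised counts in the 2-month libraries, 393, 311 and 349 in the 6-month ones, 521, 457 and 428 in the 18-month ones, and 608, 530 and 477 in the 22-month ones. C1qc libraries overlapped between 6 and 2 months and between 22 and 18 months, and did not overlap between 18 and 6 months.

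**Figure D1:**
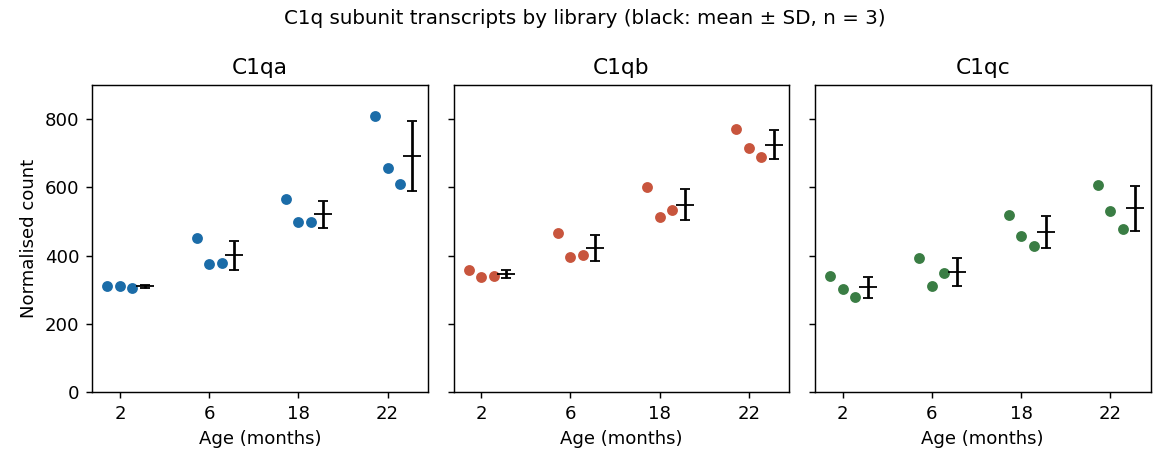
Normalised counts of C1qa, C1qb and C1qc in each library (points) by age in months, with the mean ± SD of 3 libraries in black. C1qa and C1qb libraries do not overlap between neighbouring ages, while C1qc libraries overlap between 2 and 6 months and between 18 and 22 months.

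Averaged by age, C1qa was 309.8 ± 4.17, 401 ± 42.6, 521 ± 40.1 and 692 ± 104 normalised counts at 2, 6, 18 and 22 months (SD, n = 3 each). C1qb was 346 ± 11.3, 422 ± 39.0, 549 ± 44.6 and 725 ± 42.4, and C1qc was 307 ± 31.8, 351 ± 41.2, 468 ± 47.4 and 538 ± 65.4, in the same order. The spread between libraries of an age was 1.34% to 15.0% of the mean, against 3.80% to 5.89% that counting reads alone would give. The 3 libraries of C1qa at 2 months thus lay closer together than counting error. Per kilobase of transcript, the C1qa and C1qb levels were close to each other at every age, at 665 and 667 normalised counts at 22 months against 298 and 318 at 2 months. The C1qc level per kilobase was lower, at 448 normalised counts at 22 months against 255 at 2 months.

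Over the whole span, C1qa was 2.21-fold higher, C1qb 2.09-fold and C1qc 1.75-fold at 22 months than at 2 months. The log2 fold changes, 22 against 2 months, were 1.15 ± 0.10 for C1qa (adjusted p = 1.14e-06, limma), 1.06 ± 0.08 for C1qb (adjusted p = 3.59e-07) and 0.81 ± 0.11 for C1qc (adjusted p = 5.45e-05), with SE. All 3 genes passed the threshold of 0.05 as higher, as did 18.4% of the 15663 tested genes, while 17.2% passed as lower. Over all tested genes the median log2 fold change was 0.02. In the F test over the 4 ages, C1qb ranked 13, C1qa 28 and C1qc 248 among all tested genes, with adjusted p of 1.30e-06, 5.70e-06 and 0.00016 (limma), where 31.5% of genes passed. Without 22 months replicate 1, the library high in H2-T23, the 22 against 2 months log2 fold changes were 1.03, 1.02 and 0.72 for C1qa, C1qb and C1qc, each still past the threshold.

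The subunits were already higher at 18 months, and at 22 months they were also higher than at 6 months. At 18 against 2 months the log2 fold changes were 0.75 ± 0.10 for C1qa (adjusted p = 0.000183, limma), 0.66 ± 0.08 for C1qb (adjusted p = 7.18e-05) and 0.61 ± 0.11 for C1qc (adjusted p = 0.0025). All 3 passed as higher, as did 3.94% of tested genes. At 22 against 6 months they were 0.78 ± 0.10, 0.78 ± 0.08 and 0.61 ± 0.11 (adjusted p = 0.000115, 1.91e-05 and 0.00107, limma), and again all 3 passed, with 10.6% of tested genes.

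Single steps between neighbouring ages were smaller and mostly short of the threshold. At 6 against 2 months the log2 fold changes were 0.37 ± 0.10 for C1qa, 0.28 ± 0.08 for C1qb and 0.19 ± 0.11 for C1qc (adjusted p = 0.0827, 0.0948 and 0.411, limma), so 0 of the 3 passed as higher, against 0.607% of tested genes. Unadjusted, C1qa and C1qb were under 0.05 and C1qc was not, and edgeR also passed 0 of the 3. The libraries of C1qa and C1qb did not overlap at this step, which held for 12.3% of tested genes in the higher direction. At 18 against 6 months the log2 fold changes were 0.38 ± 0.10, 0.38 ± 0.08 and 0.42 ± 0.11 (adjusted p = 0.174, 0.0768 and 0.174, limma), 0 of 3 past the threshold, where 0.0702% of tested genes passed as higher. Unadjusted, all 3 were under 0.05, and edgeR passed C1qb. All 3 genes had no overlap between 18- and 6-month libraries, a pattern found in 7.55% of tested genes.

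At 22 against 18 months C1qa and C1qb rose, with log2 fold changes of 0.40 ± 0.10 and 0.40 ± 0.08 (adjusted p = 0.0098 and 0.00286, limma), where 8.63% of tested genes passed as higher and 10.2% as lower. C1qc, at 0.20 ± 0.11, did not pass (adjusted p = 0.209, limma), and was at 0.11 without 22 months replicate 1. Libraries did not overlap for C1qa and C1qb, a pattern found in 18.4% of tested genes at this step. The call for C1qa was lost without 18 months replicate 3 (adjusted p = 0.0527, limma). The shift toward short transcripts moved with this step. The 742 tested genes with transcripts of 900 to 1300 nt, the length class of the C1q transcripts, had a median log2 fold change of 0.06 at 6 against 2 months, 0.02 at 18 against 6 months and 0.21 at 22 against 18 months. With a trend on transcript length and GC content removed from each library, the 22 against 18 months log2 fold changes were 0.20 (adjusted p = 0.226, limma), 0.22 (adjusted p = 0.0822) and 0.03 for C1qa, C1qb and C1qc, and no call remained at this step. The same removal left 22 against 2 months at 0.81, 0.75 and 0.51, all past the threshold.

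**Figure D2:**
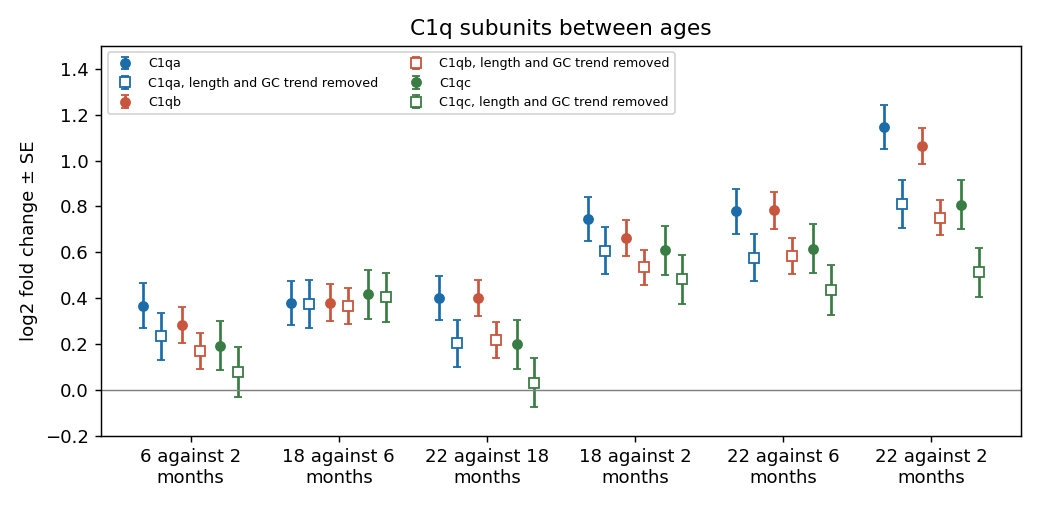
Log2 fold changes ± SE of C1qa, C1qb and C1qc for the 6 pairs of ages, with the later age over the earlier one. Filled markers show the values as analysed and open markers those with the length and GC trend removed, where 22 against 18 months stands at 0.20 for C1qa and 0.22 for C1qb, beside 0.40 for each as analysed.

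Means were higher at every step for all 3 genes, which held for 11.8% of tested genes. Libraries without overlap at all 3 steps were found for C1qa and C1qb and for 0.198% of tested genes (31 genes). Divided by the months between ages, the log2 change of C1qa per month was 0.09 ± 0.02 from 2 to 6 months, 0.03 ± 0.01 from 6 to 18 months and 0.10 ± 0.02 from 18 to 22 months. For C1qb it was 0.07 ± 0.02, 0.03 ± 0.01 and 0.10 ± 0.02 over the same steps, and for C1qc 0.05 ± 0.03, 0.03 ± 0.01 and 0.05 ± 0.03. The difference in pace between steps was not tested, and the first and last steps both change with transcript length. With the length and GC trend removed, the log2 fold changes at 6 against 2 months were 0.23, 0.17 and 0.08 for C1qa, C1qb and C1qc, and at 18 against 6 months 0.37, 0.37 and 0.40.

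The subunits varied together within an age as well. Deviations of the log2 values from the mean of their age correlated at 0.890 between C1qa and C1qb, 0.864 between C1qc and C1qb and 0.845 between C1qa and C1qc, over 12 libraries that the genes share. In all 4 ages and for all 3 genes, the library numbered 1 was the highest of its age. This held at every age for 155 of the 15663 tested genes (0.990%). With the replicate number as a block the SE of C1qc was 0.08 in place of 0.11, and C1qa at 6 against 2 months and C1qb and C1qc at 18 against 6 months passed the threshold (adjusted p = 0.0443, 0.0404 and 0.0484, limma). Across the transcriptome, libraries with the same number did not deviate together.

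Whether the subunits kept 1 ratio was asked because the protein holds the chains in equal number. C1qc gained less than C1qa over the ages. The ratio of C1qa to C1qc, in normalised counts, was 1.01, 1.14, 1.11 and 1.28 at 2, 6, 18 and 22 months. Its log2 value was 0.34 higher at 22 than at 2 months, and the ages differed by an exact permutation test over all 369600 divisions of the libraries (p = 0.00331, adjusted over 3 ratios 0.00994). The lowest of the 22-month ratios was 1.24, above the highest of the 2-month ratios, 1.10. The ratio of C1qc to C1qb was 0.740 at 22 months against 0.885 at 2 months, a log2 difference of -0.26 (exact permutation p = 0.0316, adjusted 0.0474). This call was lost in 9 of the 12 cases with 1 library left out, where the adjusted p ran from 0.0217 to 0.141 (exact permutation). The ratio of C1qa to C1qb was 0.948 at 22 months against 0.896 at 2 months, a log2 difference of 0.08, and no difference between ages passed (exact permutation p = 0.436, adjusted 0.436). Of the per-length C1q level, C1qc made up 25.1% ± 0.490 at 22 months against 29.2% ± 1.71 at 2 months (SD, n = 3 each).

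**Figure D3:**
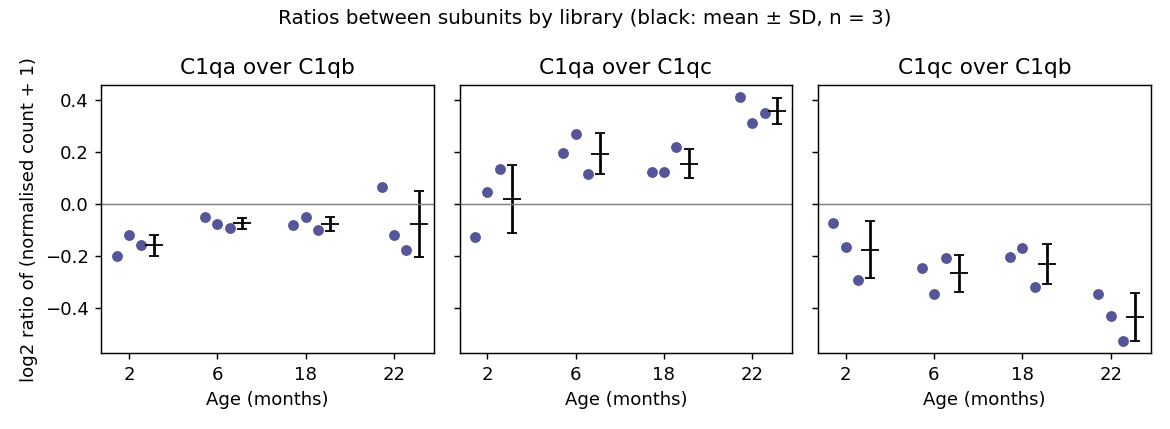
Log2 ratios of normalised counts plus 1 between pairs of C1q subunits in each library (points) by age in months, with mean ± SD of 3 libraries in black. C1qa over C1qc lies higher at 22 months than at 2 months without overlap, and C1qc over C1qb lies lower on average.

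In bulk tissue, more cells of a type and more RNA per cell cannot be told apart, so the C1q genes were set beside 12 markers of homeostatic microglia. All 12 were tested, and at 22 against 2 months 4 passed as higher and 1 as lower, beside 18.4% higher and 17.2% lower among all tested genes. The median log2 fold change was 0.19. Their summed level ran from 5678 to 6313 normalised counts in the 22-month libraries and from 4927 to 5253 in the 2-month libraries. Csf1r, Selplg and Cx3cr1 were among the leading markers by level. Selplg, a ligand of selectins, was at 896 normalised counts at 22 months against 742 at 2 months (log2 fold change 0.28, adjusted p = 0.0274, limma). Csf1r, the receptor for microglial growth factors, was at 977 against 925 normalised counts, and Cx3cr1, the fractalkine receptor, at 603 against 560, at 22 and 2 months, with adjusted p of 0.311 and 0.271 (limma). Tmem119, which was picked after its values were seen, came nearest to the C1q genes with a log2 fold change of 0.75.

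Relative to the mean log2 of these markers, all 3 subunits rose. The ratio for C1qa was 0.958, 1.26, 1.44 and 1.87 at 2, 6, 18 and 22 months, for C1qb 1.07, 1.33, 1.52 and 1.97, and for C1qc 0.946, 1.10, 1.29 and 1.46. The log2 differences, 22 less 2 months, were 0.97, 0.88 and 0.63, and the ages differed for each (exact permutation test over libraries, adjusted p = 9.74e-05, 9.74e-05 and 0.00026). An unadjusted p of 6.49e-05 is the smallest that this design allows, and C1qa and C1qb reached it. With Cx3cr1, P2ry12 and Tmem119 as the only markers the differences were 0.84, 0.76 and 0.50, and without the trend on length and GC they were 0.68, 0.62 and 0.38, all past the threshold.

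**Figure D4:**
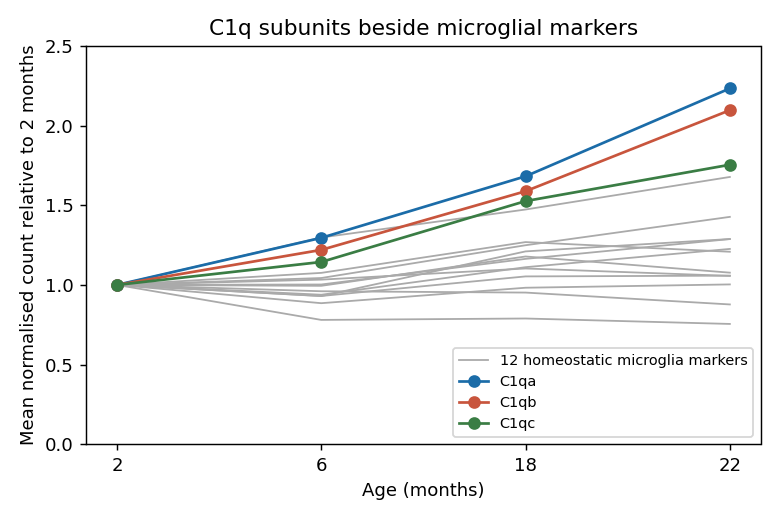
Mean normalised counts of C1qa, C1qb and C1qc (coloured) and of 12 homeostatic microglia markers (grey), each divided by its own mean at 2 months, by age in months, 3 libraries an age. The C1q lines end above the markers at 22 months, with Tmem119 the nearest of them.

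Of 12 genes of activated microglia, 10 were tested and 7 passed as higher at 22 against 2 months and 0 as lower, beside 18.4% higher and 17.2% lower among all tested genes. Unadjusted, 8 were under 0.05, and edgeR called 8. The median log2 fold change was 0.82. Lyz2, lysozyme, had a log2 fold change of 1.60 ± 0.14 (adjusted p = 1.75e-06, limma) and Cd68, a lysosomal glycoprotein, 0.58 ± 0.12 (adjusted p = 0.00159). The lipase gene Lpl was at 0.04 and did not pass. Of 9 border macrophage markers, 4 were tested and 0 passed in either direction, also unadjusted or by edgeR, with a median log2 fold change of -0.01. Pf4, Lyve1, Cbr2, Ms4a7 and Cd209f were under the filter. The summed level of all 9 markers ran from 242 to 311 normalised counts in the 22-month libraries and from 259 to 284 in the 2-month libraries. Of 6 markers of blood monocytes and neutrophils, 2 were tested and 1, Ly6c2, passed as higher, with 344 normalised counts at 22 months against 259 at 2 months (adjusted p = 0.0189, limma). The monocyte and neutrophil markers summed to 367 ± 49.1 normalised counts at 22 months against 274 ± 45.4 at 2 months (SD, n = 3 each). Ly6c2 made up most of this sum at both ages, so it speaks mainly of that 1 gene. None of the 6 markers of T and B cells reached the filter of 10 normalised counts in 3 libraries, and 3 of 4 tested erythroid genes were higher at 22 against 2 months. The summed erythroid level ran from 2918 to 3568 normalised counts in the 22-month libraries and from 1223 to 2079 in the 2-month libraries. The part of these cells in the C1q values was not tested.

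The list of C1 complex and complement genes held 25 genes, of which 19 were tested, and 4 were higher and 3 lower at 22 against 2 months, shares near those of all tested genes (18.4% and 17.2%). The median log2 fold change was -0.06. C3, the central component that is cleaved downstream, was at 351 ± 104 normalised counts at 22 months against 30.7 ± 1.95 at 2 months (log2 fold change 3.44 ± 0.20, SE, adjusted p = 2.53e-08, limma). C4b, which is cleaved by C1s, was at 1832 ± 295 against 557 ± 22.3 (1.71 ± 0.13, adjusted p = 4.17e-07), and its near-identical copy C4a at 2162 ± 369 against 620 ± 31.3, so reads could be split between C4a and C4b. C1ra and C1rb, the proteases that ride with C1q and are near copies of each other, were under the filter, with means of 8.49 and 7.18 normalised counts at 22 months and 3.45 and 3.51 at 2 months. The C1s level per kilobase was 3.01 normalised counts at 22 months and 4.13 at 2 months, where the C1qb level per kilobase was 667 and 318. C1s did not pass at 22 against 2 months (log2 fold change -0.46 ± 0.40, adjusted p = 0.405, limma). Gm5077, a gene of the same list, had the same values as C1s in several libraries. Their means at 2 months were 12.14 normalised counts for Gm5077 and 12.17 for C1s, so reads could be split between them. Cfp, a stabiliser of the alternative pathway, and Csmd1, a complement inhibitor, were lower, at log2 fold changes of -0.61 and -0.56 (adjusted p = 0.00135 and 0.000716, limma). The length and GC trend was not removed from the values of the listed complement genes, and the part of the length shift in them was not tested.

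Of 13 genes for C1q receptors and binding proteins, 12 were tested, and 6 were higher and 2 lower at 22 against 2 months, beside 18.4% higher and 17.2% lower among all tested genes. The median log2 fold change was 0.06. Itgam and Itgb2, the subunits of complement receptor CR3, were at 996 and 102 normalised counts at 22 months against 770 and 56.5 at 2 months (log2 fold changes 0.37 and 0.84, adjusted p = 0.000216 and 0.000744, limma). Calr, the calreticulin that can bind C1q on cell surfaces, was at 3337 ± 42.3 normalised counts against 2970 ± 76.6 (log2 fold change 0.17, adjusted p = 0.0377), and its partner Lrp1 was lower, at -0.39 (adjusted p = 0.00119). The length and GC trend was not removed from the Calr and Lrp1 values, and the part of the length shift in them was not tested. Mertk, an engulfment receptor, averaged 273, 333, 332 and 256 normalised counts at 2, 6, 18 and 22 months, and of its steps between neighbouring ages 22 against 18 months passed (adjusted p = 0.00477, limma).

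The list of transcription factors held 12 factors that act on C1q genes or in microglia, and all were tested. At 22 against 2 months 4 were higher and 1 lower, beside 18.4% higher and 17.2% lower among all tested genes. The median log2 fold change was 0.43. Cebpa, a myeloid factor, was at 130 ± 15.2 normalised counts at 22 months against 71.7 ± 5.35 at 2 months (0.84 ± 0.13, adjusted p = 0.000186, limma). Sfpi1, which encodes PU.1, was at 48.7 ± 7.11 against 25.8 ± 5.56 (0.90 ± 0.22, adjusted p = 0.005). At single steps between neighbouring ages 0 of the 12 passed. Among all tested genes 0.607% passed as higher at 6 against 2 months and 0.0702% at 18 against 6 months. At 22 against 18 months 8.63% passed as higher and 10.2% as lower. Unadjusted, 1 was under 0.05 at 6 against 2 months, 1 at 18 against 6 months and 3 at 22 against 18 months, and edgeR passed 1 at the last step.

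The wider family of proteins with a C1q-like head held 24 genes. Of these 16 were tested, and 2 were higher and 2 lower at 22 against 2 months, beside 18.4% higher and 17.2% lower among all tested genes. The median log2 fold change was -0.16. C1qtnf4, a secreted C1q/TNF relative, was at 993 ± 137 normalised counts at 22 months against 694 ± 41.7 at 2 months (log2 fold change 0.51, adjusted p = 0.000367, limma). Cbln4, a synaptic organiser, was at 18.1 ± 3.12 against 37.2 ± 6.02 (adjusted p = 0.0128).

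Genes next to the cluster on chromosome 4 moved in both directions. The 3 tested genes on the side of lower coordinates were Luzp1, Kdm1a and Ephb2, with log2 fold changes of -0.37 (adjusted p = 0.00228, limma), -0.07 and -0.22 at 22 against 2 months, of which Luzp1 passed. On the side of higher coordinates, Epha8, Zbtb40 and Wnt4 were at 0.15, -0.21 and 0.95. Of these Wnt4, a secreted WNT ligand, passed (adjusted p = 0.00233, limma), with means of 60.3, 67.7, 68.4 and 112 normalised counts at 2, 6, 18 and 22 months.

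The genes most like the mean of the 3 subunits over the 12 libraries were ranked among 11639 genes with a symbol and a mean of at least 50 normalised counts. Ctss, a lysosomal cysteine protease, came first with a Pearson correlation of 0.980 over 12 libraries. It was at 534 ± 4.61, 596 ± 62.3, 889 ± 67.8 and 1140 ± 219 normalised counts at 2, 6, 18 and 22 months, and in 22 months replicate 1 it was at 1388. Lag3, an immune receptor, followed at 0.968 and Fcgr3, a receptor for antibody Fc parts, at 0.965. Lag3 was at 150 normalised counts at 22 months against 43.7 at 2 months, and Fcgr3 at 194 against 108. Others of the first 10 were Habp4, Abhd14b, H2-T23, Sdha, Hrsp12 and H2-Q4, from 0.965 to 0.953. H2-T23 and H2-Q4 belong to a family of close copies whose reads could be split between members. Ranked on deviations from the age means, which leave age out, the first 5 were Fer1l5, Ankrd16, Fmnl3, Sowahc and Cfhr2, from 0.965 to 0.934, and none of these was among the first 10 over all libraries.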

How the data were processed

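RNA-seq of the mouse subventricular zone was analysed from 1 table of signal values that the authors deposited, each a gene's read count scaled by 1 size factor per library. The submitters' processing notes name DESeq2 and the build mm10; the aligner, counting tool, annotation and strandedness are not given in the sources used here. With a tolerance of 1e-06, 100% of the values in each column were whole multiples of 1 read, so whole reads were recovered. A count of 0 allows up to 3 reads, here 1.74 to 4.41 normalised counts per library, and this limit covers counting error only. 1 further deposited column, log2 fold changes of the authors' own comparison, was not used.

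All 12 libraries were fitted with limma 3.58.1 in R 4.3.3 (eBayes with an intensity trend) on log2 of the normalised count plus 1, so fold changes of low genes are understated. Tests covered the 15663 genes that reached 10 normalised counts in 3 or more libraries, two-sided, with Benjamini-Hochberg adjustment over all of them and a threshold of 0.05. Errors of log2 fold changes are SE, and those of means are SD. Scripts were tested on simulated data. edgeR 4.0.16 (quasi-likelihood test, TMM) on the recovered reads was chosen after seeing the data, and called 145, 38, 2857 and 5238 genes at 6 against 2, 18 against 6, 22 against 18 and 22 against 2 months. Pairs of libraries of an age differed by 1.47 to 5.97 times the variance that counting gives, so none was counted as a duplicate.

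The C1q genes and all gene lists were chosen with earlier results of these data known. The motifs, the 900 to 1300 nt class and the comparison with the library numbered 1 were chosen after seeing the data. Up to 6 genes of each C1q-related list were named by the smallest F test p, and up to 4 of a cell type list by level. Tmem119, C1ra, C1rb, C1s, Gm5077, C1qtnf4 and Cbln4 were named outside these rules, after their values were seen. A few genes that these rules took are not reported here. List symbols missing from the table were looked up by gene ID in RefSeq, where 23666 genes matched. Transcript lengths and GC content came from GENCODE and covered 14853 tested genes (94.8%). The C1qa promoter and the proteins were not used here.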

Additional observations from a re-analysis of the deposited data

How the results depend on the processing

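Of the 324 values of C1qa, C1qb and C1qc over the 6 pairs of ages and 18 alternatives, 314 kept their direction and their side of the threshold, 3 lost the call, 7 gained one and 0 reversed. All 54 values over the ages together kept theirs, as did 76 of 87 values of the ratios. With the replicate number as a block, C1qa at 6 against 2 months (0.37, adjusted p = 0.0443, limma), C1qb at 18 against 6 months (0.38, adjusted p = 0.0404) and C1qc at 18 against 6 months (0.42, adjusted p = 0.0484) passed the threshold. Correlations of deviations between same-numbered libraries of different ages ran from -0.187 to 0.159, so no pairing by number was seen over all tested genes. A pairing that touches only some genes was not tested, and the labels do not say what the number marks. edgeR passed C1qb at 18 against 6 months (0.39, adjusted p = 0.0491). With the length and GC trend removed, C1qa (0.20) and C1qb (0.22) at 22 against 18 months and C1qc over C1qb (-0.24, exact permutation, adjusted p = 0.0938) no longer passed.

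Leaving out 1 library gave C1qa 0.28 to 0.41 at 6 against 2 months, past the threshold without 22 months replicate 1 (adjusted p = 0.0328, limma). It gave C1qb 0.32 to 0.46 at 18 against 6 months, past it without 6 months replicate 1 (adjusted p = 0.0197) and without 22 months replicate 1 (adjusted p = 0.0386), and C1qa 0.28 to 0.49 at 22 against 18 months. C1qc, which passed in none of these cases, ran from 0.11 (without 6 months replicate 1) to 0.28 at 6 against 2 months and from 0.11 (without 22 months replicate 1) to 0.28 at 22 against 18 months. C1qa over C1qb ran from 0.0097 to 0.13, past the threshold without 22 months replicate 1 (exact permutation, adjusted p = 0.0342). C1qc over C1qb ran from -0.32 to -0.21, and held only when the left-out library was 2 months replicate 3, 18 months replicate 3 or, at 22 months, replicate 1. C1qa over C1qc ran from 0.27 to 0.40 and passed in all 12 cases.

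Counts of genes past the threshold moved more. At 6 against 2 months they were 145, with 92 without a filter, 17 without the intensity trend and 39 to 265 with 1 library left out, most without 22 months replicate 1. At 18 against 6 months they were 24, with 13, 3 and 8 to 67 in the same order, and 38 by edgeR. At 22 against 18 months they were 2956, with 1840 without the trend, 1561 with length and GC removed and 1183 to 3320 with 1 library left out. At 18 against 2 months they were 1141, with 700 without the trend and 597 to 1342 with 1 library left out. With length and GC removed they were 1854 in place of 3480 at 22 against 6 months (1790 to 3889 with 1 library left out), 3328 in place of 5584 at 22 against 2 months and 3125 in place of 4936 over any age. The causes were not tested. Depth limits the genes under 10 normalised counts, among them C1ra and C1rb.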
